A study of Mus musculus with 6 samples.

Results

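The common gamma chain receptors are the cell surface receptors for interleukin (IL) 2, 4, 7, 9, 15 and 21. Their 8 chains were taken from the deposited table of 54532 genes by gene symbol: Il2rg, the shared chain, and Il2ra, Il2rb, Il4ra, Il7r, Il9r, Il15ra and Il21r. Poly-A RNA of T helper 17 (Th17) cells made in culture, a helper T cell type that secretes IL-17, was sequenced in 3 wild-type (WT) and 3 GOT1-/- libraries. GOT1 is the cytosolic aspartate transaminase. WT cells came from C57BL/6 mice and GOT1-/- cells from mice lacking GOT1 in T cells only. C57BL/6 is the strain label of all samples, and the sources used here do not name the transgene that restricts the deletion to T cells. Mice of either sex were 6 to 10 weeks old. Naive CD4+ T cells, sorted with CD25- and CD44- among the gates, were activated with antibodies to CD3 (5 ug/ml, coated) and CD28 (2 ug/ml, soluble). Both genotypes received 2.5 ng/ml of TGF-beta, 10 ng/ml of each of IL-23, IL-6 and IL-1beta, and 2 ug/ml of each of the antibodies that block IL-4 and IFN-gamma, and RNA was taken on day 4. No cytokine of the common gamma chain family is listed among the additives, and IL-4 protein was neutralised. CD25 is the product of Il2ra, so the starting cells had been gated against that chain.

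Each receptor of the family joins the common gamma chain to private chains that recognise the cytokine. IL-4, IL-7, IL-9 and IL-21 each use a private chain of their own, whereas IL-2 and IL-15 share the beta chain (Il2rb) and differ in the alpha chain (Il2ra or Il15ra). The kinase JAK3 sits on the common gamma chain and JAK1 on the private signalling chains, and together they activate STAT5 (chiefly after IL-2, IL-7, IL-9 and IL-15), STAT6 (after IL-4) or STAT3 (after IL-21). In T cells, IL-7 receptor is known as a marker of naive and memory cells and is reduced by activation, IL-2 receptor alpha is induced by activation, IL-2 acting through STAT5 restrains Th17 differentiation, and IL-21 is a product of Th17 cells that acts back on them.

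Library totals ranged from 16463752 to 22541410 counts, and 12873 genes passed the filter on low counts. The targeted gene Got1 had 2873 to 3524 counts in WT and 300 to 339 in GOT1-/- libraries. Summed over 7 T cell markers (Cd3d, Cd3e, Cd3g, Cd4, Trac, Trbc2 and Lck), levels were 3002 to 3201 CPM (counts scaled to 1000000 per library) in WT and 2797 to 3055 CPM in GOT1-/- libraries, with 1 marker called higher (adjusted p under 0.05), 2 lower and 4 not called. Cd3d rose (log2 fold change 0.35, adjusted p = 0.000752 by edgeR) and Cd3e fell (-0.30, adjusted p = 0.00358). Trac fell from 642 ± 5.64 to 455 ± 38.5 CPM (-0.50, adjusted p = 3.19e-05). Of all tested genes, 22.9% were called higher and 21% lower. The Th17 markers Rora, Il17a, Il17f, Ccr6 and Il23r summed to 1216 to 1326 and 1167 to 1268 CPM, of which Il17f made up most, at 1075 ± 52.8 and 1012 ± 50.2 CPM without a call. Beneath this sum Il17a rose (log2 fold change 0.70, adjusted p = 2.17e-06 by edgeR), while Rora (-0.59, adjusted p = 0.00022) and Il23r (-0.86, adjusted p = 0.000754) fell. With trends over gene length and GC content removed, Il17a was at 0.63, Rora at -0.23 and Il23r at -0.86. Il17f was then called lower (-0.15, adjusted p = 0.0289 by edgeR). Each set of markers of other cells summed to less than the T cell and Th17 sets, and several markers differed between genotypes. The regulatory T cell markers Foxp3 and Ikzf2, of a cell type known for low Il7r and high Il2ra, summed to 10.2 to 14.2 CPM in WT and 13.3 to 14.1 CPM in GOT1-/- libraries. Foxp3 was not called (-0.19, adjusted p = 0.396), and Ikzf2 rose (0.56, adjusted p = 0.0075), from 5.58 ± 1.11 to 8.22 ± 0.287 CPM. Summed over Trdc, Tcrg-C1 and Tcrg-C2, gamma-delta T cell markers were at 5.97 to 6.89 CPM in WT and 12.3 to 13.6 CPM in GOT1-/- libraries. The 6 mast cell and basophil markers summed to 3.03 to 3.85 and 12.0 to 12.9 CPM, the 5 NK and CD8 T cell markers to 66.0 to 69.9 and 48.5 to 52.4 CPM, and the 4 B cell markers to 1.75 to 2.78 and 2.27 to 3.21 CPM. Among the NK and CD8 T cell markers only Klrd1 was called, falling from 54.1 ± 2.34 to 36.8 ± 1.98 CPM. Cd8a (0.73, adjusted p = 0.0501) and Cd8b1 (-0.06) were not called. Ncr1 and Klrb1c had at most 3 counts per library and were not tested. The 6 myeloid markers summed to 25.5 to 27.0 and 27.5 to 32.3 CPM with members moving in opposite directions. Cd68 fell from 19.6 ± 2.08 to 11.1 ± 1.18 CPM, Lyz2 rose from 4.03 ± 0.770 to 12.6 ± 1.69 CPM and Cd14 from 1.27 ± 0.737 to 3.58 ± 0.834 CPM, S100a8 rose from 1 to 3 counts to 17 to 28 counts per library, and Csf1r and Itgam were not called. No marker was at 0 in all 6 libraries. The part of such cells in the results for the receptor chains was not tested, and in bulk RNA fewer cells of a type and less RNA per cell cannot be told apart.

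Of the 8 receptor chain genes, Il7r and Il21r fell in GOT1-/- cells, none rose, 5 were not called and Il9r was too low to be tested. Il7r stood at 413 ± 33.0 CPM in WT against 156 ± 14.9 CPM in GOT1-/- cells, a decrease of 2.65-fold, and Il21r at 445 ± 9.26 and 378 ± 23.6 CPM, a decrease of 1.18-fold (SD, n = 3 each). Genes were called at an adjusted p under 0.05 from edgeR's quasi-likelihood test, with p-values of all tested genes adjusted together (Benjamini-Hochberg), and adjusted p-values come from this test unless another is named. By this rule 43.8% of all tested genes were called, 21% lower and 22.9% higher in GOT1-/- cells, so 2 of 7 tested chains is not a high share. The levels of the 2 genotypes did not overlap for 4 of 7 tested chains, against 53.4% of all tested genes. The median log2 fold change was -0.13 over the 7 tested chains and 0.01 over all genes, and that of the chains was -0.06 with the trend over gene length removed (the length correction).

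The promoter sequences of the 2 chains that fell are shown first, since they are the stretches in which binding letters of factors known to act on these receptors were looked for. Each is the 250 bases before the start site annotated by RefSeq on GRCm38.p6, written 5′ to 3′ on the gene's strand, and capitals mark the motif matches. The Il7r stretch is chr15:9529877-9530126 on the minus strand and the Il21r stretch is chr7:125603179-125603428 on the plus strand. The whole Il7r stretch lies inside the deposited Il7r gene, which reaches 9530176 and so begins upstream of the RefSeq start site, whereas the Il21r stretch ends at the base before the deposited gene.
Il7r: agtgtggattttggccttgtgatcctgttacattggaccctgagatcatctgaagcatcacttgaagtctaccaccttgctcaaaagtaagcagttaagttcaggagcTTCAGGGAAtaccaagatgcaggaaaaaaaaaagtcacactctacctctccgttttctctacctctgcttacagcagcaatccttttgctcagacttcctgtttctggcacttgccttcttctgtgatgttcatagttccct
Il21r: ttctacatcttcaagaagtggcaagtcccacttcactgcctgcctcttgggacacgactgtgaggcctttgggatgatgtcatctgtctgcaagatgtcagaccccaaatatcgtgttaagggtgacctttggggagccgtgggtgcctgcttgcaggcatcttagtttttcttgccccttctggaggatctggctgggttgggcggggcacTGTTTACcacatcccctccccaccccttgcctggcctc
The capitals in Il7r are TTCAGGGAA, a match to the STAT element TTCNNNGAA, which begins 142 bases before the start site. Those in Il21r are TGTTTAC, the reverse complement of the forkhead element GTAAACA of FOXO factors, beginning 38 bases before the start site. Neither stretch held CGGAAG, the only form of the ETS element looked for, on either strand. It was found in the stretches of Il2rg and Il15ra. Other forms of the ETS, STAT and forkhead elements were not looked for. The absence of a match thus does not show that a stretch lacks such a site. RefSeq stretches were matched for 7 of the 8 chains, 2 of them for Il15ra, and not for Il2rb. Among these, TTCNNNGAA occurred in that of Il7r only and GTAAACA in that of Il21r only. Over 32851 mouse promoter stretches of the same length, 7.02% held TTCNNNGAA, 3.17% GTAAACA and 13.6% CGGAAG. None of the motifs overlapped another in the 2 stretches printed. Such a match describes letters and not a bound site.

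Per kilobase of gene length (RPKM, CPM divided by the deposited gene length in kilobases), the chains spanned a wide range. The order was the same in both genotypes, from Il2ra through Il2rb, Il4ra, Il2rg, Il21r, Il7r and Il15ra to Il9r. Il2ra, the alpha chain that gives the IL-2 receptor its high affinity, was at 500 ± 14.0 RPKM in WT and 500 ± 4.11 RPKM in GOT1-/- cells, above 99.3% and 99.2% of tested genes. Il2rb followed at 249 ± 2.09 and 265 ± 7.57 RPKM. Il4ra, the alpha chain of the IL-4 receptor, was at 161 ± 9.55 and 148 ± 2.81 RPKM, and its libraries lay above all those of Il2rg within each genotype. Il2rg (135 ± 2.14 RPKM in WT) and Il21r (134 ± 2.79 RPKM in WT) overlapped, so these neighbours in the order did not differ beyond their spread; in GOT1-/- cells they overlapped as well, at 120 ± 10.2 and 114 ± 7.09 RPKM. Il7r was at 88.6 ± 7.07 RPKM in WT, above 96.3% of tested genes, and at 33.5 ± 3.20 RPKM in GOT1-/- cells, above 87.9%. Il15ra was at 0.785 ± 0.145 and 0.942 ± 0.211 RPKM, far below every chain above it in that order.

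**Figure D1:**
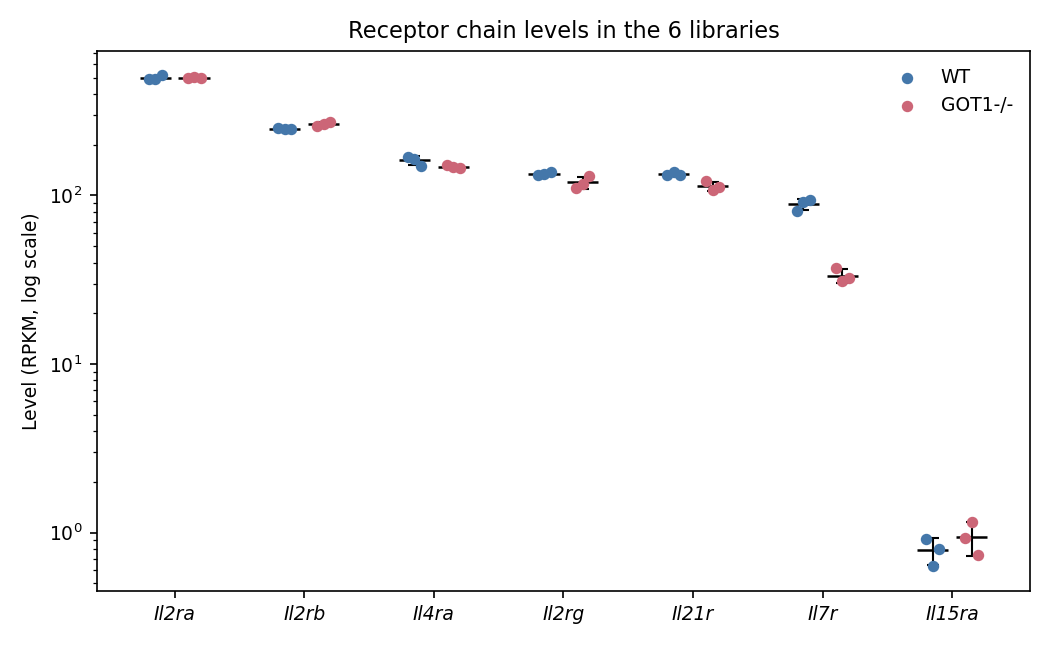
RPKM of 7 chains on a log axis in 3 WT and 3 GOT1-/- libraries; points are libraries, horizontal lines are means and bars are SD (n = 3). Il7r falls from 88.6 to 33.5 RPKM, while Il2ra stays near 500 RPKM; Il9r, with 0 to 4 counts per library, is left out.

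Il7r encodes the IL-7 receptor alpha chain, which also serves the receptor for TSLP. The gene is ENSMUSG00000003882, on the minus strand of chromosome 15 from 9505788 to 9530176 (GRCm38). WT replicates 1 to 3 had 7427, 9128 and 7214 counts, and GOT1-/- replicates 1 to 3 had 3580, 3250 and 2588 counts. In CPM these were 375, 428 and 436 in WT and 173, 144 and 151 in GOT1-/- libraries. Every GOT1-/- library lay well below every WT library. The log2 fold change was -1.40 (SE 0.08, 95% interval -1.58 to -1.23, adjusted p = 3.21e-09), and 0.707% of tested genes were called with a decrease at least as large. It stayed between -1.48 and -1.29 in all 18 alternative settings, which included removal of the trends over gene length and GC content, and was called in each of the 18. A trend of this kind was present: over 11526 protein-coding genes, Spearman's rho of the log2 fold change was -0.397 with gene length and 0.311 with GC content, across genes, which are not independent replicates.

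Il21r encodes the private chain of the IL-21 receptor. The gene is ENSMUSG00000030745, on the plus strand of chromosome 7 from 125603429 to 125633570. WT replicates 1 to 3 had 8737, 9707 and 7246 counts (442, 456 and 438 CPM), and GOT1-/- replicates 1 to 3 had 8343, 8021 and 6419 counts (403, 356 and 375 CPM). The genotypes did not overlap, and the decrease was much smaller than that of Il7r. The log2 fold change was -0.24 (SE 0.07, 95% interval -0.38 to -0.09, adjusted p = 0.00895). Without GOT1-/- replicate 2 the call was lost (-0.20, adjusted p = 0.0696), whereas the decrease was larger once length and GC content were corrected for (-0.40, adjusted p = 3.27e-05).

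Il2rg, the common gamma chain itself (ENSMUSG00000031304, chromosome X, 101264378 to 101268255, minus strand), lay close to the threshold. Its levels were 317, 322 and 328 CPM in WT replicates 1 to 3 and 266, 278 and 312 CPM in GOT1-/- replicates 1 to 3. The genotypes did not overlap, but GOT1-/- replicate 3 was only slightly below the lowest WT library. The log2 fold change of -0.18 (SE 0.07, 95% interval -0.33 to -0.03) had an adjusted p = 0.0526 and was not called. It was called lower in 11 of 18 alternative settings, among them removal of the trend over length (-0.33, adjusted p = 0.000408) and over length and GC content (-0.29, adjusted p = 0.00037), DESeq2 (adjusted p = 0.0348) and the comparison without GOT1-/- replicate 3 (-0.25, adjusted p = 0.0047). Over all alternatives its adjusted p ranged from 0.00037 to 0.175. Il2rg has the shortest deposited length of the 8 chains, 2387 bp.

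The chains of the IL-2 receptor differed little between genotypes. Il2ra (ENSMUSG00000026770, chromosome 2, 11642807 to 11693193, plus strand) was at 2820, 2803 and 2949 CPM in WT replicates 1 to 3 and 2835, 2880 and 2846 CPM in GOT1-/- replicates 1 to 3, with the GOT1-/- libraries inside the WT range. The ratio of GOT1-/- to WT was 0.999 with a 95% interval of 0.913 to 1.09 (adjusted p = 0.982). Il2rb (ENSMUSG00000068227, chromosome 15, 78479256 to 78495271, minus strand) was at 1077, 1066 and 1059 CPM in WT and 1106, 1134 and 1171 CPM in GOT1-/- replicates 1 to 3. All 3 GOT1-/- libraries lay above all 3 WT libraries, yet the log2 fold change of 0.09 (95% interval -0.04 to 0.22) was not called (adjusted p = 0.249).

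Il4ra (ENSMUSG00000030748, chromosome 7, 125552120 to 125579474, plus strand), whose product also forms the IL-13 receptor, was at 1009, 994 and 903 CPM in WT replicates 1 to 3 and 907, 884 and 874 CPM in GOT1-/- replicates 1 to 3. WT replicate 3 overlapped the GOT1-/- libraries. The log2 fold change was -0.13 (95% interval -0.26 to 0.01, adjusted p = 0.137). It was called lower without WT replicate 3 (-0.18, adjusted p = 0.0258) and after the length and GC correction (-0.17, adjusted p = 0.0126), with adjusted p-values from 0.0126 to 0.449 over all alternatives. Il4ra and Il21r are neighbours, 24.0 kb apart on the same strand.

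The remaining private chains were scarce. Il15ra, the alpha chain that binds IL-15 (ENSMUSG00000023206, chromosome 2, 11705290 to 11734317, plus strand), lies 12.1 kb downstream of Il2ra, the most abundant chain. WT replicates 1 to 3 had 81, 60 and 59 counts, GOT1-/- replicates 1 to 3 had 86, 116 and 56, and the genotypes overlapped. Its log2 fold change of 0.28 had a 95% interval of -0.16 to 0.72 (adjusted p = 0.29), so this depth leaves room for a change of up to 1.64-fold upwards. The value depended on single libraries, at 0.09 without GOT1-/- replicate 2, 0.14 without WT replicate 2 and 0.42 without GOT1-/- replicate 3, and was not called in any of these. Counts of Il9r, the IL-9 receptor alpha chain (ENSMUSG00000020279, chromosome 11, 32187541 to 32200279, minus strand), were 0, 2 and 0 for WT replicates 1 to 3 and 2, 4 and 1 for GOT1-/- replicates 1 to 3. A count of 0 allows up to 3 counts, or 0.133 to 0.181 CPM, for counting error only, and all but 1 library lay under 3 counts, so no fold is given. Counts of Il2ra could be shared with Gm37881, which overlaps it on the same strand with 119 to 200 counts, and the genes that overlap Il2rg and Il4ra had 0 to 2 counts. The other 5 chains overlapped no listed gene.

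**Figure D2:**
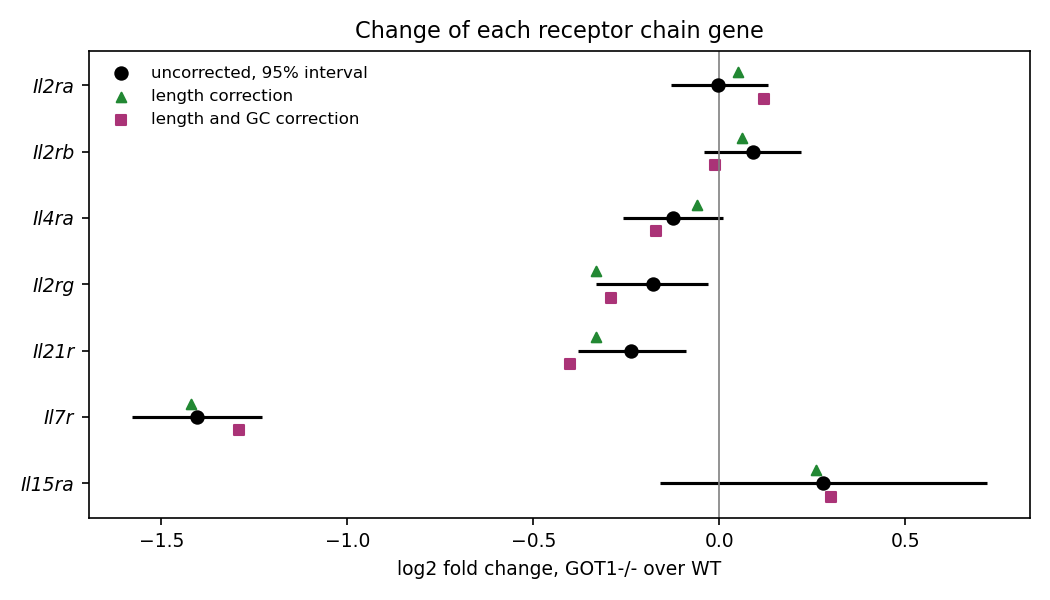
Log2 fold change of GOT1-/- over WT for the 7 tested chains. Black points with bars are the uncorrected values with 95% intervals, triangles the values after the length correction and squares those after the length and GC correction. Il7r is at -1.40 uncorrected and at -1.42 and -1.29 corrected, and Il2rg is at -0.18 uncorrected and at -0.33 and -0.29 corrected.

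Each private chain was also expressed as the ratio of its RPKM to that of Il2rg in the same library, which does not depend on library scaling. Il7r was at 0.606, 0.680 and 0.681 times Il2rg in WT replicates 1 to 3 and at 0.333, 0.266 and 0.248 times in GOT1-/- replicates 1 to 3. The log2 ratio was lower by 1.23 in GOT1-/- cells, from -0.61 ± 0.10 to -1.84 ± 0.22 (SD, n = 3 each), with no overlap. By a two-sided exact permutation test over the 6 libraries p = 0.10, the smallest that 3 against 3 allows, and adjusted p = 0.20 over the 6 ratios tested, so no ratio could pass the threshold. Il2rb was at 1.84 ± 0.0447 times Il2rg in WT and 2.23 ± 0.123 times in GOT1-/- cells (log2 difference 0.27, exact permutation p = 0.10), and Il2ra was at 3.70 ± 0.0653 and 4.20 ± 0.346 times (0.18, exact permutation p = 0.10), also without overlap. The Il2ra ratios nearly met, at 3.76 in WT replicate 3 and 3.81 in GOT1-/- replicate 3. The level of Il2ra itself in GOT1-/- cells was 0.999 times that in WT. The ratios of Il4ra (log2 difference 0.06, exact permutation p = 0.50), Il21r (-0.06, p = 0.60) and Il15ra (0.44, p = 0.30) overlapped between genotypes, and that of Il15ra ranged from 0.257 without GOT1-/- replicate 2 to 0.669 without GOT1-/- replicate 3. With the trend over gene length removed, the log2 differences were -1.09 for Il7r, 0.377 for Il2ra, 0.388 for Il2rb and 0.270 for Il4ra. No ratio was formed for Il9r because of its counts of 0.

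**Figure D3:**
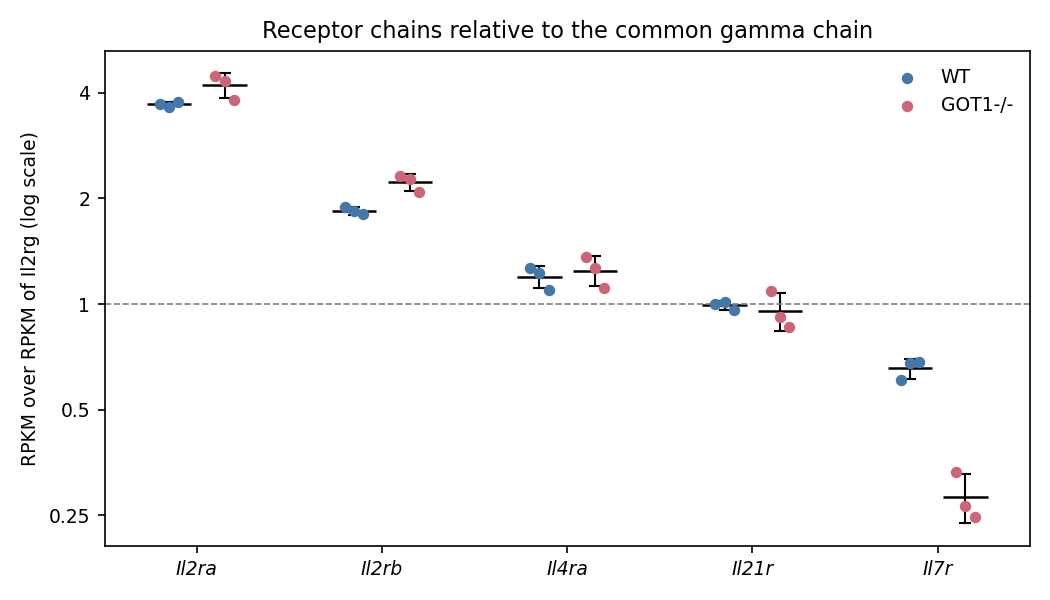
RPKM of 5 private chains divided by RPKM of Il2rg in the same library, on a log axis; points are libraries, horizontal lines are means and bars are SD (n = 3). The dashed line marks a ratio of 1. The Il7r ratio lies at 0.606 to 0.681 in WT and 0.248 to 0.333 in GOT1-/- libraries.

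Summed over the 8 chains, RPKM was 1260 to 1277 in WT and 1171 to 1194 in GOT1-/- libraries. Il7r made up 6.98 ± 0.515% of this sum in WT and 2.84 ± 0.276% in GOT1-/- cells. The share of Il2ra was 39.4 ± 0.917% and 42.3 ± 0.660%, and that of Il2rb was 19.6 ± 0.296% and 22.5 ± 0.478%. The shares add up to the whole in each library, so a lower share of Il7r leaves higher shares to the others.

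Of the 8 ligand genes, Il9 and Il13 rose, Il2 was called lower, Il21 and Il4 were not called, and Il7, Il15 and Tslp had 0 to 2 counts per library and were not tested. The median log2 fold change of the 5 tested ligands was 0.43, or 0.23 after the length correction. Beside these calls, 22.9% of all tested genes were called higher and 21% lower. Il13 was included because its receptor contains Il4ra, and Tslp because its receptor contains Il7r. Il9, a growth factor gene of helper T cells and mast cells, went from 25, 20 and 31 counts in WT replicates 1 to 3 to 93, 123 and 113 counts in GOT1-/- replicates 1 to 3 (log2 fold change 2.04, adjusted p = 6.20e-06). Its receptor chain Il9r had at most 4 counts in the same libraries. Il13 rose by 2.21 on the log2 scale (adjusted p = 4.76e-06), from 0.791 ± 0.123 to 3.73 ± 0.663 CPM. The mast cell and basophil markers given above moved with these genes, and their part was not tested. Counts of Il2 were 19, 17 and 15 for WT replicates 1 to 3 and 3, 15 and 6 for GOT1-/- replicates 1 to 3 (-1.15, adjusted p = 0.0467). That call rested on few counts and was lost in 9 of the 17 alternatives that gave a value, with an adjusted p up to 0.198. Il21, the ligand of Il21r, was abundant, at 384 ± 52.8 CPM in WT against 363 ± 8.45 CPM in GOT1-/- cells, without a call (adjusted p = 0.457). Il4 was at 2.69 ± 0.392 and 3.63 ± 0.648 CPM (adjusted p = 0.106).

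The chains that pair with members of the family outside it moved in opposite directions. Crlf2, which joins Il7r in the TSLP receptor, had 1448, 1582 and 1034 counts in WT and 1906, 2027 and 1570 counts in GOT1-/- replicates 1 to 3 (log2 fold change 0.38, adjusted p = 0.000851). After the length and GC correction it was no longer called (0.00, adjusted p = 0.975; adjusted p = 0.0444 after the length correction alone). Il13ra1, which joins Il4ra in the type II IL-4 receptor, fell from 13.9 ± 1.83 to 6.55 ± 1.14 CPM (-1.09, adjusted p = 1.64e-05).

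Of 11 signalling genes of these receptors 4 fell, 1 rose and 6 were not called, with a median log2 fold change of -0.13, or -0.06 after the length correction. For comparison, 43.8% of all tested genes were called, 21% lower and 22.9% higher. Jak1, the kinase of the private chains, fell by 0.49 on the log2 scale, from 499 ± 12.6 to 356 ± 17.4 CPM (adjusted p = 1.86e-05). Jak3, the kinase of the common gamma chain, had the same mean level in both genotypes, 616 ± 72.1 CPM in WT against 616 ± 46.1 CPM in GOT1-/- cells (adjusted p = 0.997). Stat5a fell from 492 ± 18.0 to 350 ± 25.8 CPM (-0.49, adjusted p = 3.56e-05), Stat5b by 0.29 on the log2 scale (adjusted p = 0.00701) and the adaptor gene Gab2 by 0.51 on the log2 scale (adjusted p = 0.000556). The gene that rose, named after its value was seen, was Pik3cd (0.20, adjusted p = 0.0482), a call lost in 9 of 18 alternatives.

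Of 6 feedback genes, which are inhibitors of JAK and STAT signalling, 3 rose, 2 fell and 1 was not called, with a median log2 fold change of 0.12, or -0.00 after the length correction. Among all tested genes, 22.9% were called higher and 21% lower. Cish, a STAT5 target that dampens IL-2 receptor signalling, had 6101, 5625 and 4056 counts in WT and 7125, 7801 and 5757 counts in GOT1-/- replicates 1 to 3. Its level rose by 0.33 on the log2 scale, from 273 ± 32.5 to 342 ± 5.12 CPM (adjusted p = 0.00273). Socs2, also a STAT5 target, rose by 0.30 on the log2 scale, from 158 ± 9.74 to 194 ± 21.9 CPM (adjusted p = 0.00733), a call lost without GOT1-/- replicate 2 (adjusted p = 0.0919). Socs1, an inhibitor of JAK kinases, was called higher (0.26, adjusted p = 0.00804) but not with the trend over length removed (0.14, adjusted p = 0.107) or with those over length and GC content removed (0.03, adjusted p = 0.7). Socs3, the inhibitor of IL-6 family signalling, fell from 458 ± 79.6 to 323 ± 54.6 CPM with overlap between the genotypes (-0.50, adjusted p = 0.00207), and the phosphatase gene Ptpn2 fell by 0.30 on the log2 scale (adjusted p = 0.00428).

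Of 10 genes known to respond to these cytokines in growth and survival, 5 rose, 2 fell and 3 were not called, with a median log2 fold change of 0.09. The shares over all tested genes were 22.9% called higher and 21% called lower. Lta, which encodes lymphotoxin alpha, rose by 2.06 on the log2 scale, from 70.0 ± 7.20 to 292 ± 47.2 CPM (adjusted p = 8.57e-10). The cyclin gene Ccnd3 rose from 310 ± 21.1 to 514 ± 4.99 CPM (0.73, adjusted p = 5.43e-07). The survival gene Bcl2, which IL-7 is known to maintain in T cells, rose from 247 ± 14.4 to 338 ± 20.2 CPM (0.45, adjusted p = 8.56e-05), and Bcl2l1 rose from 79.8 ± 3.64 to 116 ± 7.35 CPM (0.54, adjusted p = 2.34e-05). The 2 that fell, named after their values were seen, were Myc (-0.37, adjusted p = 0.00155) and Mcl1 (-0.17, adjusted p = 0.0373), the latter not called in 5 of 18 alternatives. The count of those called lower grew to 4 after the length correction, with the kinase genes Pim1 (-0.20, adjusted p = 0.0218) and Pim2 (-0.18, adjusted p = 0.0283), and to 5 after the length and GC correction, with Osm (-0.20, adjusted p = 0.0229). Ccnd2, another cyclin gene and the last of the 5 that rose (0.17, adjusted p = 0.0477), was not called in 9 of 18 alternatives.

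Transcription factors reported to act on Il7r in lymphocytes, activators and repressors alike, formed a list of 8 genes. Of these 6 fell, none rose and 2 were not called, against 21% of all tested genes called lower. The count that fell was 5 after the length correction and 5 after the length and GC correction, but not of the same genes. After the length and GC correction, Ets1 and Gabpa (-0.14, adjusted p = 0.117) were no longer called. Gfi1, not called before, then was (-0.26, adjusted p = 0.0392). Gabpa and Gfi1 were named after their values were seen. Their median log2 fold change was -0.34, or -0.25 after the length correction. Any part of these factors in the fall of Il7r was not tested. Foxo1, which drives Il7r in naive T cells, fell from 310 ± 7.62 to 219 ± 16.9 CPM (-0.50, adjusted p = 2.78e-05; -0.33 after the length correction). Foxp1, a repressor of Il7r, fell from 103 ± 3.38 to 59.6 ± 6.05 CPM (-0.79, adjusted p = 1.34e-06; -0.49 after the length correction). The glucocorticoid receptor gene Nr3c1 fell by 0.43 on the log2 scale (adjusted p = 0.000462). Its log2 fold change was -0.30 after the length correction and -0.22 after the length and GC correction. Ets1 was called lower (-0.28, adjusted p = 0.00147), but not with the trend over length removed (-0.11, adjusted p = 0.15) or with both trends removed (-0.09, adjusted p = 0.169).

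Of 3 other genes that FOXO1 is known to drive in naive T cells 2 fell and 1 was not called. Their median log2 fold change was -0.91, and 21% of all tested genes were called lower. Any part of the lower Foxo1 level in these values was not tested. S1pr1, the receptor that guides T cells out of lymph nodes, fell from 231 ± 8.93 to 123 ± 9.13 CPM (-0.91, adjusted p = 9.61e-08), and the transcription factor gene Klf2 from 70.4 ± 16.2 to 35.3 ± 4.73 CPM (adjusted p = 2.02e-05). The member that was not called, named after its value was seen, was the chemokine receptor gene Ccr7 (-0.11, adjusted p = 0.158), which the length correction brought past the threshold (-0.28, adjusted p = 0.000824).

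**Figure D4:**
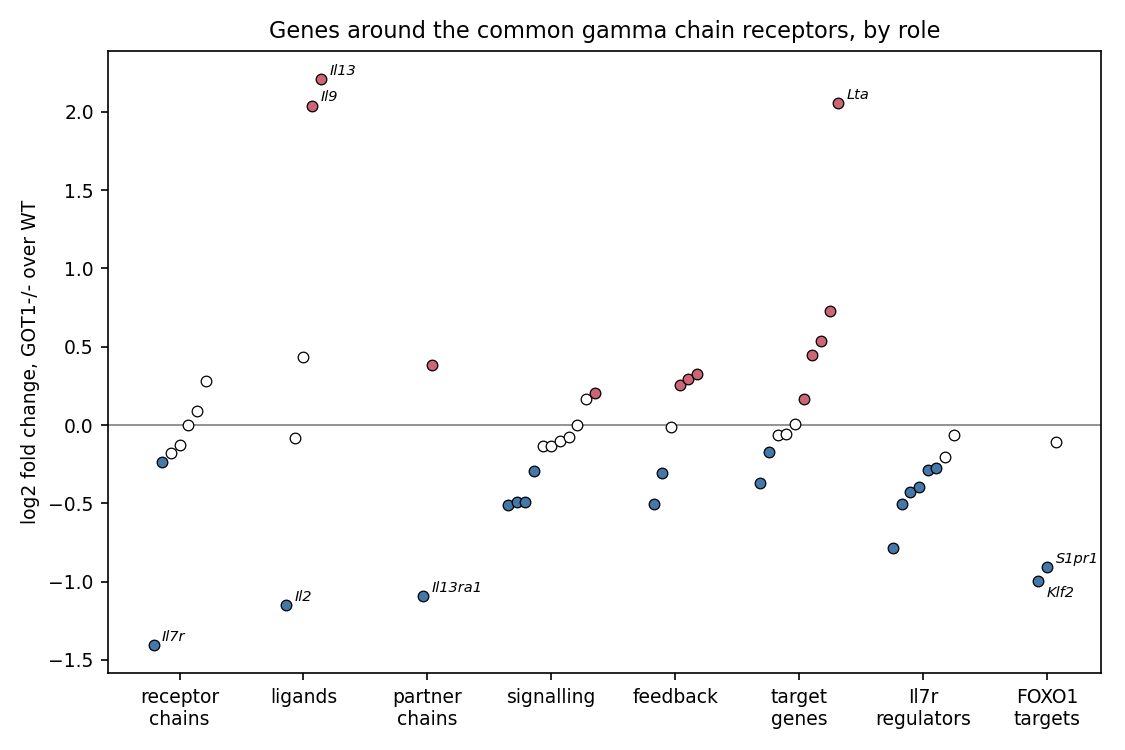
Log2 fold change of GOT1-/- over WT for each tested gene, grouped by role; filled points were called (red higher, blue lower, adjusted p under 0.05) and open points were not. Il7r at -1.40 is the lowest point shown, with S1pr1 at -0.91 and Klf2 near it among FOXO1 targets, whereas Il9, Il13 and Lta lie above 2.

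Among 8372 protein-coding genes with a mean of at least 10 CPM, the 5 whose pattern over the 6 libraries was most like that of Il7r were Arap2, Lbp, Gbp2, Ahr and Bcl6. Likeness was the root mean square difference of log2 CPM, each gene centred on its own mean, and it was 0.072 for Arap2, 0.075 for Lbp, 0.097 for Gbp2, 0.102 for Ahr and 0.123 for Bcl6. Their log2 fold changes lay between -1.53 (Bcl6) and -1.23 (Gbp2), beside -1.40 for Il7r. The 6 points share the 2 genotypes, and this measure makes no distinction between likeness across genotypes and within them.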

How the data were processed

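RNA was sequenced in 3 WT and 3 GOT1-/- libraries, grouped by their titles. The deposited table holds raw counts of reads for each gene as whole numbers, with gene coordinates and lengths. STAR and GRCm38 are named, per the submitters' processing notes, but the version, the read counter, its setting for strand and the gene annotation are not. GENCODE M21, also on GRCm38, held 54409 of the deposited IDs, and all 8 chains had the same coordinates there. Symbols that had been turned into dates were restored for 27 genes. All 6 columns were used. Nothing in the labels ties replicates to separate animals, so the p-values speak of the spread among these libraries alone, and that spread may be technical. No library repeated another: within a genotype, counts differed beyond sampling noise, with a chi-square of 3.76 to 13.7 per degree of freedom.

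Counts were TMM-scaled (trimmed mean of M-values, factors 0.976 to 1.01) and tested with edgeR 4.0.16 in R 4.3.3 by the two-sided quasi-likelihood test with genotype as the only term, after filterByExpr (minimum count 10, minimum total 15), with Benjamini-Hochberg adjustment over 12873 genes. RPKM is CPM per kilobase of the deposited length. 95% intervals use the test's standard error and degrees of freedom. The length and GC corrections removed each library's trend, estimated with natural splines (5 degrees of freedom) in a robust regression. Alternatives were other scalings and filters, DESeq2 1.42.0, limma-voom (limma 3.58.1), a robust dispersion, protein-coding genes only, the replicate number as a block, both corrections and each library left out. The procedure was tested on simulated data.

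The chains and the gene lists were chosen with earlier results of these data known, so no list is independent support. Some genes of the lists are not reported here. Besides the cell type markers and overlapping genes, the rule names the 8 chains, Got1, all ligands, Jak1, Jak3, Stat5a, Stat5b, Cish and Socs1. It adds the called genes with the smallest adjusted p of every pathway list (at most 4 each) and the 5 genes most like Il7r. Pik3cd, Myc, Mcl1, Ccnd2, Pim1, Pim2, Osm, Ccr7, Gabpa and Gfi1 fall outside this rule and were named after their values were seen. The rule also asked for genes most like the called chain with the largest rise, and no chain was called higher. The deposited counts cannot separate membrane from soluble receptor isoforms.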

Additional observations from a re-analysis of the deposited data

How the results depend on the processing

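The 2 chains called lower became 4 after the length and GC correction (Il7r, Il21r, Il2rg and Il4ra) and 1 without GOT1-/- replicate 2 (Il7r), and ranged from 1 to 3 over the comparisons that left out a library. No chain was called higher in any of the 18 alternatives. The log2 fold change of Il2ra turned positive under upper-quartile scaling (0.031), without a filter (0.001), after the length correction (0.046) and the length and GC correction (0.119), and that of Il2rb turned to -0.015 after the length and GC correction. None of these was called. With a library left out, the log2 fold change of Il2ra ranged from -0.022 to 0.011, the log2 ratio of Il4ra to Il2rg differed between genotypes by -0.008 to 0.135, and that of Il21r by -0.154 to 0.014. With length-corrected levels the Il21r ratio differed by 0.000. Over the pathway lists together, 18 of 45 tested genes were called lower and 12 higher. Over all tested genes, 21% were called lower and 22.9% higher. Both counts of the lists stayed within 1.5 times in every alternative (16 to 23 lower, 9 to 13 higher).

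With the replicate number as a block, 5792 genes were called in place of 5643, and 3 chains were called lower, Il2rg among them (adjusted p = 0.0365), whereas Il2 was not called (0.0523). The numbers give no sign of pairing: deviations of same-numbered libraries correlated at 0.059, -0.0258 and 0.0332, and not every library correlated best with its own number. Depth limits Il15ra, Il9r and Il2, whose counts per library were at most 116, 4 and 19.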
